A study of Arabidopsis thaliana with 12 samples.

Results

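SOB3 binding at the end of the night, ZT24, was set against binding early in the night, ZT9, site by site. All peaks of the 3 ZT24 and 3 ZT9 lists that overlapped by at least 1 bp were merged, which gave 27664 nuclear sites, against 28285 when the 3 ZT4 lists were added. Of these 27664 sites, 14367 (51.9%) held a peak in all 6 lists and could be ranked in every one of them, 392 (1.42%) held a peak in 3 of 3 ZT24 lists and 0 of 3 ZT9 lists (sites gained over the night), and 177 (0.640%) held a peak in 3 of 3 ZT9 lists and 0 of 3 ZT24 lists (sites lost over the night). Daytime ZT4 lists served only as background.

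SOB3 (AT1G76500) belongs to the AHL family, plant nuclear proteins that touch AT-rich DNA through an AT-hook, and it restrains elongation of the hypocotyl, the seedling stem. In short days the hypocotyl grows mainly late in the night, when PIF transcription factors accumulate and activate genes of auxin and brassinosteroid, the hormones of cell elongation. The circadian clock sets this timing. Its morning proteins CCA1 and LHY repress evening genes such as GI, TOC1 and ELF4 through a DNA word called the evening element, AAATATCT, while the G-box, CACGTG, is a site of PIF and bZIP proteins.

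Both groups were whole Arabidopsis thaliana seedlings in the Col-0 background that carried ProSOB3::SOB3-GFP in the sob3-4 mutant, so the fusion was driven by its own promoter and the endogenous gene was mutated. They grew in days of 8 h light and 16 h dark. ZT24 seedlings were 6 days old and ZT9 seedlings 5 days old, and time of night and age cannot be told apart. Each group had 3 biological ChIP replicates with an antibody to GFP and 1 input, out of 12 samples in the series, no plants without GFP were analysed here, and whole seedlings mix all cell types.

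The 6 lists held between 20988 and 24827 nuclear peaks with a median fold enrichment between 2.55 and 2.84, and the lowest background in a list, the only measure of depth in these files, lay between 12.1 and 15.2 fragments per base. Fold enrichment is the ChIP pileup at a summit divided by a local background. Since MACS2 derives its fold and its p-value from these same quantities, the pileup and the background could be solved for every peak. Lists were called separately, so each value was turned into its percentile among the 14367 shared sites of its own list, and the ranks were tested between the times with limma. A site carries the name of the gene whose TSS (transcription start site) is nearest, which does not show that the gene is regulated from it.

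Single sites differ in sequence. Printed here are 300 bp windows at the summit, from the plus strand of the RefSeq TAIR10.1 genome, for a gained site with G-boxes, a lost site with an evening element, a site that ranked higher at ZT24 and one that ranked lower, and for 4 clock genes whose sites ranked lower at ZT24 and hold evening elements. Capitals mark CACGTG, or AAATATCT on either strand (read as AGATATTT on the plus strand when the element lies on the minus strand).
AT4G16770 site, chr4:9441876-9442175: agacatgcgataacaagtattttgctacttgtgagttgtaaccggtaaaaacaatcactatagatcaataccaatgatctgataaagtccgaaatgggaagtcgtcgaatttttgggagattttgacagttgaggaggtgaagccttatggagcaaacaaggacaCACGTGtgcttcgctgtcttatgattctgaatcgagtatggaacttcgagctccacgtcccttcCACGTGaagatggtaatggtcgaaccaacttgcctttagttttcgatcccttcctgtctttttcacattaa
XRCC2 site, chr5:25787355-25787654: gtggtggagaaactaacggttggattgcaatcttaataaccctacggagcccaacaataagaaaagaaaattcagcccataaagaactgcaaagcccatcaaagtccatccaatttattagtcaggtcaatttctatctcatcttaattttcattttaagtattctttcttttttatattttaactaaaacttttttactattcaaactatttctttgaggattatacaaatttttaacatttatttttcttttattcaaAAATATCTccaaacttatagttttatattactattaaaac
TPX2 site, chr1:952911-953210: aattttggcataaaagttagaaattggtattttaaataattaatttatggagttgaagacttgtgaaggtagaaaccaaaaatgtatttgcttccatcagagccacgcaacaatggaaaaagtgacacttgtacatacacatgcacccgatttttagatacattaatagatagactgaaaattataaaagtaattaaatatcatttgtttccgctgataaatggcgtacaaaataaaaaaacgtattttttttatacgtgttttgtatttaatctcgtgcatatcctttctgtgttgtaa
IGMT2 site, chr1:7396903-7397202: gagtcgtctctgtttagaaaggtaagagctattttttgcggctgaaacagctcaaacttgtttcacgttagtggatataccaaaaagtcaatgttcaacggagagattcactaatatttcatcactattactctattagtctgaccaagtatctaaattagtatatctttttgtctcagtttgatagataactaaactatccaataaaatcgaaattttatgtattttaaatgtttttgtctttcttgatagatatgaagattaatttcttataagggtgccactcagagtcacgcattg
GI site, chr1:8060698-8060997: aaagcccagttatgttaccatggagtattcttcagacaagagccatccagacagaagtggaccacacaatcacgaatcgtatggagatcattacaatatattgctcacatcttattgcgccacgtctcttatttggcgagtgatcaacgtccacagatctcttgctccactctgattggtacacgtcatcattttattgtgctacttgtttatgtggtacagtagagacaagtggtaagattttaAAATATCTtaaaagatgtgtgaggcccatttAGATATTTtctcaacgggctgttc
FKF1 site, chr1:25508334-25508633: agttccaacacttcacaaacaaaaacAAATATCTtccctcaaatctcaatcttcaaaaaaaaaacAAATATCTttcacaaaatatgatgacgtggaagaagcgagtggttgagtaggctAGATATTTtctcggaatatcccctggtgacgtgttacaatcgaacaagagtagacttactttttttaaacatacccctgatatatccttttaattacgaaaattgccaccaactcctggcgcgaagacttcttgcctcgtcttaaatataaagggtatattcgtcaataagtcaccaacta
PRR5 site, chr5:8361082-8361381: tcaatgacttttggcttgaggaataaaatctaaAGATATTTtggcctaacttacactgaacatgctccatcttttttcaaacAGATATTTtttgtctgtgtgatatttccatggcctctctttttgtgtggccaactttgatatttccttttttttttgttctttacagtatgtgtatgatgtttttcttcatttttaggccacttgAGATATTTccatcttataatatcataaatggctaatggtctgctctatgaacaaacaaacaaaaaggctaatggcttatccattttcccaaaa
TOC1 site, chr5:24674556-24674855: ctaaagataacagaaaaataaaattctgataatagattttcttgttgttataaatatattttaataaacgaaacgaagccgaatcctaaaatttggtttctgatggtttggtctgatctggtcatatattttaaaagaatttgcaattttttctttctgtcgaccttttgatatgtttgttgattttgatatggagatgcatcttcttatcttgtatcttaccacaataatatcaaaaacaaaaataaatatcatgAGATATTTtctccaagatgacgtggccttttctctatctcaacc

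The gained AT4G16770 window has 2 G-boxes, the lost XRCC2 window has 1 evening element, and the clock windows have 2 (GI), 3 (FKF1), 3 (PRR5) and 1 (TOC1) evening elements. Of these clock sites only the TOC1 site passed an adjusted test, by fold rank. The GI sites 26 and 2169 bp upstream of the TSS, which also passed it, hold no evening element. The TPX2 and IGMT2 windows hold neither word. Over all 27664 windows, an evening element was found in 5.96% and a G-box in 10.8%, on either strand. A match describes the letters and does not show which protein was there.

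Several evening genes of the clock ranked lower at ZT24. GI, a large nuclear protein that links the clock to flowering, had 3 sites upstream of its TSS, and the pileup rank was lower in each ZT24 list than in any ZT9 list at all 3. At the GI site 26 bp upstream (chr1:8061488-8061947) the pileup stood at percentiles 30.6, 32.1 and 18.0 in the ZT24 lists, against 70.7, 72.5 and 84.3 in the ZT9 lists. The solved pileups behind them were 62, 59 and 41 fragments at ZT24 and 81, 82 and 90 at ZT9. Its fold percentiles were 33.3, 35.6 and 5.63 at ZT24, against 73.9, 73.0 and 82.5 at ZT9, so the groups did not overlap on either scale. The fold rank fell by 1.52 ± 0.335 normal-score units (SE; limma, Benjamini-Hochberg adjusted p = 0.0397), and the pileup rank had an unadjusted p of 0.000195 and an adjusted p of 0.0923. Recovered background at this site was at percentiles 45.1, 46.2 and 87.4 at ZT24 and 49.7, 52.8 and 63.3 at ZT9, which overlap.

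The GI site 2169 bp upstream had pileup percentiles of 54.9, 65.6 and 45.7 in the ZT24 lists, against 85.0, 85.0 and 87.0 in the ZT9 lists, and its fold rank also fell (limma adjusted p = 0.0469). It lies by the transcript end of the neighbouring gene. The GI site 903 bp upstream, the one with evening elements in its window, had 53.6, 67.6 and 62.1 at ZT24, against 86.2, 82.6 and 83.1 at ZT9. Its groups did not overlap either, with an unadjusted p of 0.00356 for the pileup rank, and its fold rank did not pass (limma adjusted p = 0.294).

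TOC1, a pseudo-response regulator that represses the morning genes, had 1 shared site, 257 bp upstream of its TSS. Its fold percentiles were 14.4, 19.2 and 37.5 in the ZT24 lists, against 68.9, 76.1 and 67.4 in the ZT9 lists. The fold rank fell by 1.30 ± 0.251 units (SE; limma adjusted p = 0.0313). Pileup percentiles were 25.3, 52.7 and 62.1 at ZT24, against 71.8, 80.1 and 70.4 at ZT9, again without overlap (limma unadjusted p = 0.0221), while its background percentiles were 78.8, 98.0 and 94.1 at ZT24, against 63.5, 65.4 and 63.8 at ZT9. TOC1 thus combined a lower pileup and a higher background at ZT24. The part of the background in the fold result was not tested.

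LHY, a morning MYB repressor of the evening genes, ranked the other way. At its site 305 bp upstream, fold percentiles were 68.2, 58.3 and 66.3 in the ZT24 lists, against 16.8, 12.2 and 8.67 in the ZT9 lists, and the fold rank rose by 1.53 ± 0.217 units (SE; limma adjusted p = 0.0177). The pileup percentiles lay closer, at 52.3, 41.5 and 49.7 at ZT24 and 27.2, 34.5 and 32.4 at ZT9 (limma unadjusted p = 0.0349). Background percentiles were 8.33, 8.67 and 8.06 at ZT24 and 76.7, 90.8 and 92.1 at ZT9, and their part in the fold result was not tested. CCA1, the close relative of LHY, differed by −4.14 pileup percentiles (limma unadjusted p = 0.545).

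The adjusted calls at GI and TOC1 needed all 6 lists. With any 1 list left out, the 2 GI calls and the TOC1 call were lost, with adjusted p between 0.0722 and 0.108 for GI at 26 bp, between 0.0818 and 0.125 for GI at 2169 bp and between 0.0567 and 0.0917 for TOC1 (limma). The LHY call was kept without ZT24 replicate 2 or ZT9 replicate 1 and lost without any of the other 4 lists, over adjusted p from 0.0472 to 0.0592 (limma). The direction at all 4 sites was kept in every such fit.

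**Figure D1:**
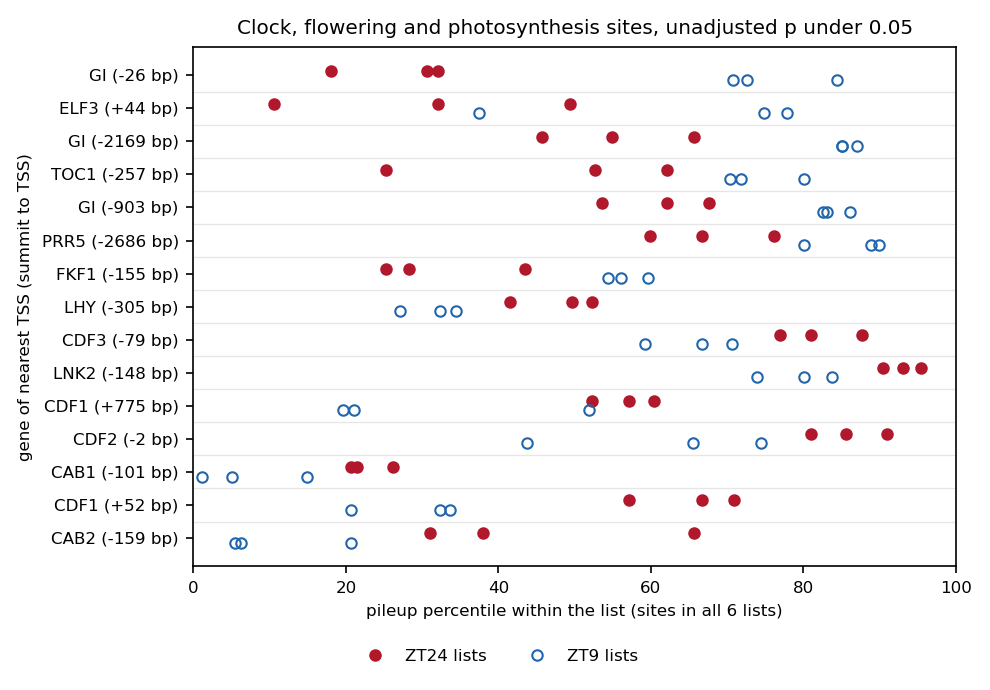
Pileup percentile (horizontal axis, rank of the solved ChIP pileup among the 14367 sites in all 6 lists) at the clock, flowering and photosynthesis sites with an unadjusted limma p under 0.05, chosen after their values were seen. Filled points are the 3 ZT24 lists and open points the 3 ZT9 lists; GI, ELF3, TOC1, PRR5 and FKF1 lie lower at ZT24 and LHY, LNK2, the CDF genes, CAB1 and CAB2 higher, and the 2 times overlap at ELF3.

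Further clock sites are given as values, since they passed no adjusted test and were picked by an unadjusted p under 0.05 after their values were seen. PRR5, a daytime repressor of CCA1 and LHY, had pileup percentiles of 59.9, 76.1 and 66.7 at ZT24, against 88.9, 80.1 and 89.9 at ZT9, at its site 2686 bp upstream (limma unadjusted p = 0.0128). FKF1, a blue-light receptor of the flowering pathway, had 25.3, 28.2 and 43.5 at ZT24, against 56.1, 59.7 and 54.4 at ZT9, at its site 155 bp upstream (limma unadjusted p = 0.0100). ELF3, a scaffold of the evening complex that represses PIF4, had 49.3, 32.1 and 10.6 at ZT24, against 74.8, 77.9 and 37.4 at ZT9, at 44 bp downstream of the TSS, where the groups overlap. At LNK2 (AT3G54500), a coactivator in the clock, the order was opposite, with 95.4, 93.0 and 90.4 at ZT24, against 73.9, 80.1 and 83.7 at ZT9 (limma unadjusted p = 0.00698).

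Of the 10 shared sites in a list of 8 evening clock genes, 8 ranked lower by pileup at ZT24, 5 of them with an unadjusted p under 0.05, and the median difference was −19.1 percentiles. These genes have unequal numbers of sites, and the 5 were every GI site, the FKF1 site and an ELF3 site. Over all 14367 shared sites 790 (5.50%) ranked lower at that p and 785 (5.46%) higher, with a median difference of 0.0870. Of the 10, 2 sites were lower by fold rank after adjustment, against 2.46% of all, and 0 higher. The exceptions were ELF4, at 0.399, and LUX (annotated as PCL1), at 13.2 for its site at −61 bp. Of the 10 sites 5 hold an evening element in the window, both of these exceptions among them. The PRR5 site 1278 bp upstream also holds the element and differed by −0.684 percentiles. The 13 sites of the list of morning and daytime clock genes, which also holds TOC1, had a median of 2.32, with 2 lower (PRR5 and TOC1) and 2 higher (LHY and LNK2) at the same unadjusted p. Left-out lists moved the evening median between −23.2 and −18.1.

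Presence of a peak added an evening gene. ELF4, a member of the evening complex, lost a site 606 bp downstream of its TSS, near the transcript end, which stood at fold percentiles 52.5, 44.8 and 73.3 of all sites in the 3 ZT9 lists and had a peak in 0 of 3 lists at both ZT24 and ZT4. COL9, a CONSTANS-like protein that delays flowering, lost a site 2702 bp downstream, at percentiles 67.4, 38.5 and 69.9 in the ZT9 lists and again with no peak at ZT24 or ZT4. These 2 had the highest mean ranks of the 177 lost sites. Both genes also kept a site upstream of the TSS in all 6 lists, whose pileup rank differed by 0.399 percentiles for ELF4 and by −1.61 for COL9.

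Flowering and light-harvesting genes had more sites with a higher than a lower pileup rank at ZT24. Of 16 shared sites of 10 flowering genes, 15 ranked higher by pileup at ZT24, although with a median of only 1.06 percentiles, and 4 had an unadjusted p under 0.05, against 5.46% of all sites. Of all 14367 shared sites 7301 ranked higher and 7062 lower by pileup, whatever the p. All 4 belonged to CYCLING DOF FACTOR genes, which repress flowering early in the day. These genes also gave most of the 16 sites, with more than 1 site each. The CDF1 site 52 bp downstream of its TSS had pileup percentiles of 70.9, 57.1 and 66.7 at ZT24, against 33.7, 20.7 and 32.4 at ZT9 (limma unadjusted p = 0.00113), and the CDF2 site 2 bp upstream had 80.9, 91.0 and 85.6 at ZT24, against 43.7, 74.5 and 65.5 at ZT9. Neither pair of groups overlapped. FT, the mobile flowering signal, differed by 0.313 percentiles and SOC1 (annotated as AGL20) by 0.755.

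CAB1 and CAB2, neighbouring genes for chlorophyll-binding proteins of the light-harvesting antenna, ranked at 21.5, 26.2 and 20.6 (CAB1) and at 37.9, 65.6 and 31.1 (CAB2) at ZT24, against 14.9, 5.01 and 1.14 (CAB1) and 5.44, 20.7 and 6.25 (CAB2) at ZT9. They were 2 of 14 photosynthesis sites at that unadjusted p, against 5.46% of all sites, with 0 lower, against 5.50%, and 10 of the 14 had a difference above 0, against 50.8% of all shared sites. By fold rank the 14 sites went both ways, from −35.3 percentiles at LHCB3 to 31.9 at CAB2, with a median of 4.62 and 0 adjusted calls. LHCB2.1, of the same antenna, gained a site 1449 bp downstream of its TSS, at fold percentiles 46.0, 23.7 and 62.3 in the ZT24 lists, that was also in 3 of 3 ZT4 lists.

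**Figure D2:**
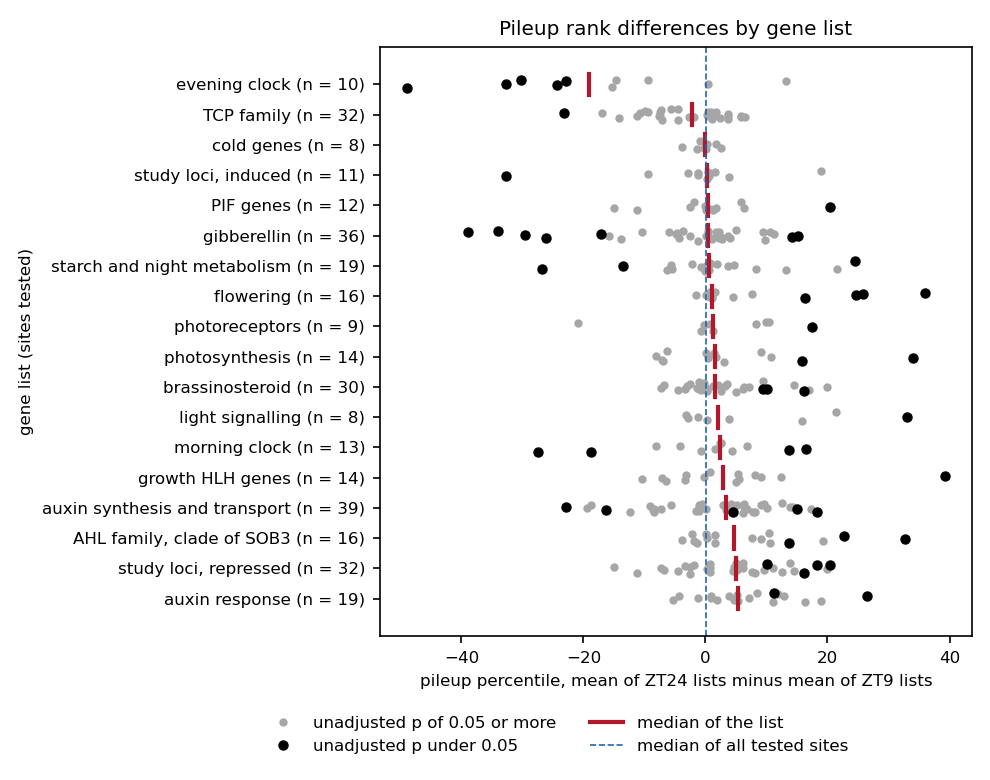
Difference in pileup percentile (horizontal axis, mean of the ZT24 lists minus mean of the ZT9 lists) for each shared site of 18 gene lists, with the number of sites in parentheses. Black points have an unadjusted limma p under 0.05, the bar is the list median and the dashed line the median of all 14367 sites, 0.0870; evening clock sites centre at −19.1 and the other 17 medians lie between −2.21 and 5.30.

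Few sites of hormone genes passed the adjusted test. The 18 lists held 203 genes with 296 shared sites, of which 9 (against 2.50% of all sites) ranked higher and 4 (against 2.46%) lower by fold after adjustment. Of 30 brassinosteroid sites 2 were higher by fold: DET2, an early enzyme of brassinosteroid synthesis, with fold percentiles of 46.3, 49.9 and 38.8 at ZT24, against 4.64, 6.56 and 17.7 at ZT9 (limma adjusted p = 0.0346), and BES1, the transcription factor of the pathway, at its site 1290 bp upstream (limma adjusted p = 0.0399). The BES1 pileup rank differed by 0.253 percentiles (limma unadjusted p = 0.405), and its background percentiles were 22.1, 24.4 and 24.3 at ZT24, against 87.0, 86.7 and 90.6 at ZT9. DET2 had background percentiles of 1.39, 1.23 and 2.93 at ZT24, against 65.5, 55.7 and 51.2 at ZT9. By pileup rank 3 of the 30 sites were higher and 0 lower at an unadjusted p under 0.05, against 5.46% and 5.50% of all sites. These were the DET2 site and 2 sites of CPD, a cytochrome P450 of the same synthesis. The other shared CPD sites differed by between −7.27 and 6.21 percentiles. BAS1, which inactivates brassinosteroids, gained a site 2301 bp upstream at fold percentiles 31.8, 27.7 and 14.3.

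Among 39 sites of auxin synthesis and transport genes 1 was higher by fold, a share close to the 2.50% of all sites, at YUC9, a flavin monooxygenase of auxin synthesis, 1232 bp upstream of its TSS (limma adjusted p = 0.0217). Its fold percentiles were 72.5, 73.1 and 71.0 at ZT24, against 28.8, 12.5 and 20.2 at ZT9, but its pileup percentiles were 74.2, 75.3 and 73.0 at ZT24 and 64.4, 59.7 and 68.1 at ZT9 (limma unadjusted p = 0.114). Its background stood at percentiles of 96.9 to 99.5 in the ZT9 lists. By pileup rank 3 of the 39 sites were higher and 2 lower at an unadjusted p under 0.05, against 5.46% and 5.50% of all sites. The lower ones were at YUC5 (limma unadjusted p = 0.00265) and LAX2 (0.0380). YUC8, which PIF factors activate, had a higher pileup rank 1841 bp upstream (limma unadjusted p = 0.00574). It also lost a weak site 6569 bp upstream, at fold percentiles 8.91, 23.5 and 14.1 in the ZT9 lists.

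Auxin response genes had 16 of 19 sites with a higher pileup rank at ZT24, against 50.8% of all shared sites, and a median of 5.30 percentiles. At an unadjusted p under 0.05, 2 sites, at IAA2 and SAUR21 (AT5G18030), had a higher rank, against 5.46% of all sites. IAA29, an Aux/IAA repressor that PIF factors induce, gained a site 39 bp upstream of its TSS. That site stood at fold percentiles 77.2, 47.8 and 72.1 of the ZT24 lists and in 3 of 3 ZT4 lists, so that the ZT9 lists were the ones without it. A second IAA29 site, in all 6 lists, differed by 4.73 pileup percentiles (limma unadjusted p = 0.676).

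Gibberellin genes had 21 of 36 sites with a higher pileup rank at ZT24, against 50.8% of all shared sites, and 15 with a lower one, with a median of 0.487. At an unadjusted p under 0.05, 5 sites were lower, against 5.50% of all, and 2 higher, against 5.46%. Of the 5 lower sites, 2 were at GA3OX1 and GA3OX2, which make active gibberellin, and 3 at GA2OX1 (2 sites) and GA2OX8, which break it down. The GA3OX1 site 1116 bp downstream of the TSS, in an intron, had pileup percentiles of 43.0, 9.54 and 15.4 at ZT24, against 49.2, 63.9 and 71.5 at ZT9 (limma unadjusted p = 0.00593). The other 4 GA3OX1 sites differed by between −4.65 and 9.79 percentiles. PIF genes gave 1 of 12 sites at that p, at UNE10 (PIF8), and the site of PIF4 differed by 5.83 percentiles (limma unadjusted p = 0.204). The 32 sites of TCP genes gave 1, at TCP14, which was lower. The PIF and TCP counts rest on 1 site each, against 5.46% of all sites higher and 5.50% lower at that p.

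At 19 sites of night metabolism genes, 1 was higher by pileup rank and 2 lower at an unadjusted p under 0.05, against 5.46% and 5.50% of all sites. The higher one was at ASN1, a dark-induced asparagine synthetase, with pileup percentiles of 32.5, 18.5 and 38.8 at ZT24, against 9.73, 6.24 and 0.383 at ZT9 (limma unadjusted p = 0.00666). SEN1, a gene switched on in darkness and senescence, gained a site 1424 bp downstream of its TSS at fold percentiles 6.00, 34.9 and 31.4, with no peak at ZT4. bZIP11 (annotated as GBF6), a regulator of the response to sugar, had 2 sites that moved apart: by fold the one 1519 bp upstream was higher (limma adjusted p = 0.0481) and the one 36 bp upstream lower (limma adjusted p = 0.0327). Of the 19 sites these were the only adjusted fold calls, against 2.50% of all sites higher and 2.46% lower. HYH, a light-signalling bZIP factor (limma adjusted p = 0.0499), XTH15, a cell wall enzyme also called XTR7 (0.0303), and CBF2, a regulator of cold acclimation (0.0247), were higher by fold rank. By pileup rank HYH had an unadjusted p of 0.00891, XTH15 of 0.0821 and CBF2 of 0.65 (limma). With any 1 list left out, the adjusted fold calls at HYH, XTH15, CBF2, DET2, BES1 and both bZIP11 sites were lost, over adjusted p from 0.0542 to 0.139, and the YUC9 call was kept only without ZT9 replicate 1 (limma).

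SOB3 lies in the list of its own AHL clade, where 12 of 16 sites, all SOB3 sites among them, had a higher pileup rank. The share over all shared sites was 50.8%, and the median of the list was 4.65 percentiles. The SOB3 site 3534 bp downstream of its TSS was higher by fold (limma adjusted p = 0.0357, and 0.0625 to 0.0979 with any 1 list left out), with pileup percentiles of 50.8, 46.6 and 57.3 at ZT24, against 16.8, 27.8 and 12.2 at ZT9. The site at the SOB3 promoter, 90 bp downstream of the TSS, differed by 0.183 percentiles. The transgene carries a copy of SOB3 sequence, and reads from it and from the endogenous locus cannot be told apart. AHL20 gained a weak site 4478 bp downstream of its TSS, at fold percentiles 14.4, 14.1 and 2.45, next to a shared site with a higher pileup rank (limma unadjusted p = 0.00744).

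Sites with an evening element ranked lower at ZT24 as a class. Their mean pileup percentile was 51.1, 50.6 and 51.5 in the ZT24 lists, against 54.6, 54.8 and 53.9 in the ZT9 lists (926 sites, 6.45% of those shared), a difference of −3.37 with no overlap between the times. With 1 more A before the element, AAAATATCT (488 sites), the difference was −4.77. It was negative in each of the 5 region classes, between −4.87 in introns and −2.77 in intergenic sequence, and −3.30 without the sites of clock genes. These are descriptions over sites that share their lists, with no test.

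By single sites, 106 evening element sites (11.4%) ranked lower at an unadjusted p under 0.05 and 27 (2.92%) higher, against 5.50% and 5.46% of all shared sites. By fold rank, 41 (4.43%) fell and 19 (2.05%) rose, against 2.46% and 2.50% of all. Ranked over all 9 lists together, the class averaged 50.4, 50.03 and 50.9 at ZT24, against 54.1, 54.5 and 53.4 at ZT9 and 54.1, 53.4 and 53.7 at ZT4, so that the ZT24 lists stood apart from both other times. The background at these sites moved the same way, with mean percentiles of 50.3, 51.1 and 50.8 at ZT24, against 52.3, 53.2 and 52.4 at ZT9, and its part in the result was not tested.

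G-box sites leaned the other way without separating the times. Their mean pileup percentile was 51.2, 52.3 and 52.2 at ZT24, against 50.4, 51.4 and 49.2 at ZT9 (1884 sites), a difference of 1.60 with overlap, and 141 (7.48%) ranked higher at an unadjusted p under 0.05 against 65 (3.45%) lower. For the wider PIF-like word (CACNNG with a purine and then a pyrimidine at the N positions, so including the G-box, in 38.2% of shared windows) the difference was 0.808, without overlap. For the TCP-like word (GGNCCA with any base but G at the N, in 37.6%) it was 0.0309, and for an AT-rich word (ANATAANA with A or T at each N, in 54.9%) 0.0816, both with overlap. All words were searched on both strands.

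**Figure D3:**
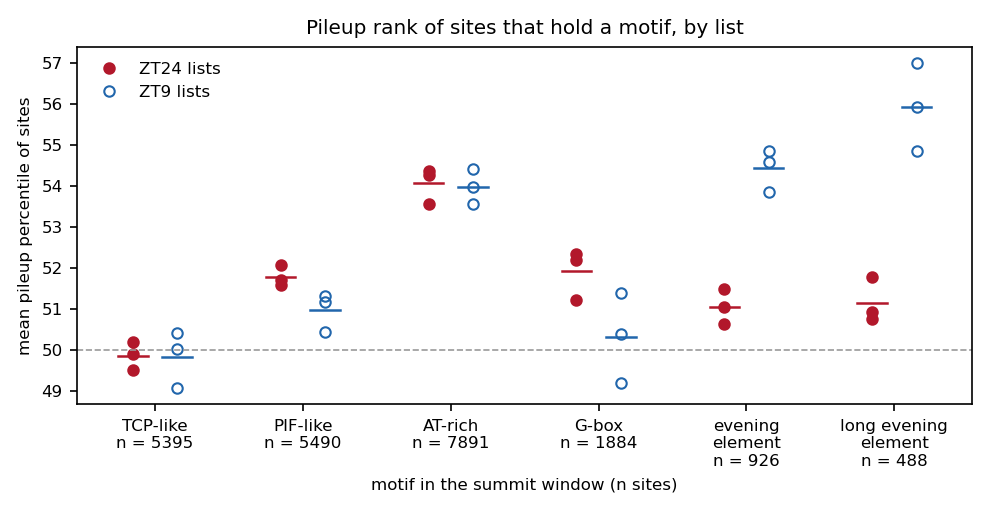
Mean pileup percentile (vertical axis, not starting at 0) of the shared sites whose 300 bp window holds each sequence word, one point per list, with bars at the mean of 3 lists. Evening element sites average 51.1 at ZT24 and 54.4 at ZT9 and the longer element 51.1 and 55.9, while the points of the TCP-like, AT-rich and G-box words overlap between the times.

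Across the 14367 shared sites, 712 (4.96%) had a fold rank that differed at an adjusted p under 0.05 (limma), 359 (2.50%) higher at ZT24 and 353 (2.46%) lower, while by pileup rank 0 sites (0.00%) did, with a lowest adjusted p of 0.0897 (limma), 1575 sites (11.0%) at an unadjusted p under 0.05 and 110 adjusted calls when log2 pileups were fitted in place of ranks. The fold calls rested on every library. Without ZT24 replicate 1 or ZT24 replicate 3 there were 0, although the other 5 lists were kept, without ZT24 replicate 2 there were 88, and without ZT9 replicates 1, 2 and 3 in turn 130, 68 and 6. Fold percentiles did not overlap between the times at 4554 sites (31.7%) and pileup percentiles at 2409 (16.8%).

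The fold calls were accompanied by the background. At the 359 sites with a higher fold rank the recovered background was lower at ZT24 at 98.6% of sites, with a median log2 difference of −0.43, and the pileup higher by a median of 0.17. At the 353 with a lower fold rank the background was higher at 97.5% of sites, by a median of 0.37, and the median pileup difference was −0.19. Over all shared sites the background was lower at ZT24 at 52.0% and higher at 48.0%. The background divides the pileup in the fold, so picking sites by fold itself leans their background in these directions. The background rank on its own differed at 6094 sites (42.4%, limma adjusted p under 0.05). Between lists of the same time Spearman's rho of the background was 0.741 to 0.762 over the 14367 sites, and between lists of different times 0.181 to 0.205, whereas the pileup gave 0.873 to 0.911 within a time and 0.843 to 0.877 between times. The input of a time point, if its 3 lists share it, cannot be told apart from the time itself on the fold scale. In that case the 3 fold ranks of a time are not independent in their background. The limma p of every fold call would then hold no spread between inputs.

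**Figure D4:**
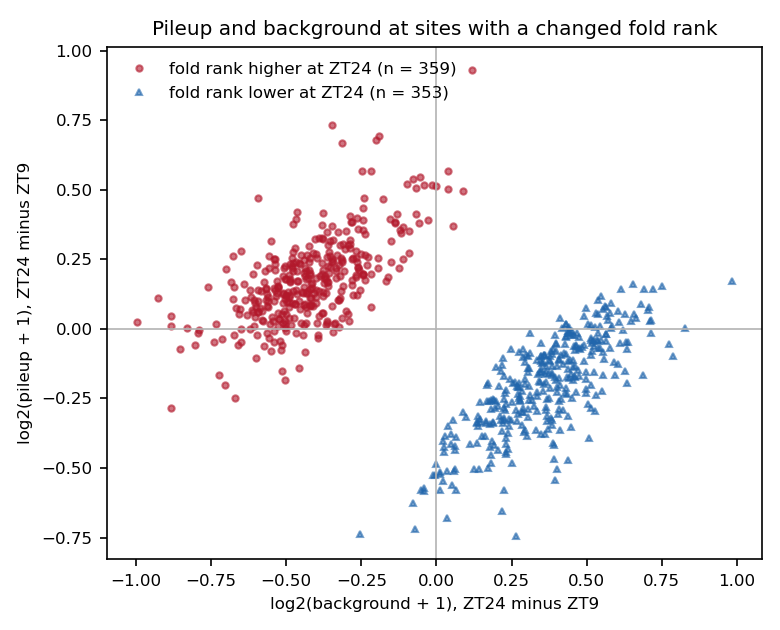
Difference in log2(background + 1) (horizontal axis) against difference in log2(pileup + 1) (vertical axis), mean of the ZT24 lists minus mean of the ZT9 lists, at the 712 sites with a changed fold rank. Circles are the 359 sites higher at ZT24 and triangles the 353 lower; the clouds part along the background axis, at medians of −0.43 and 0.37, more than along the pileup axis, at 0.17 and −0.19.

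The 12 fold sites with the smallest p all had an adjusted p of 0.0157 (limma). The 6 higher ones lay at XYP1 (a xylogen-type arabinogalactan protein), AT3G53270, ERD5 (mitochondrial proline dehydrogenase), AT3G06868, AT3G60080 and ATL5 (a RING-H2 protein), and the 6 lower ones at IGMT2 (a methyltransferase of indole glucosinolates), AL1 (an Alfin-like PHD protein), PARC6 (a chloroplast division protein), AT3G01475, AT1G70420 and GEX2 (a sperm membrane protein). With 1 list left out, all 12 calls were kept without ZT24 replicate 2, ZT9 replicate 1 or ZT9 replicate 2 and lost without ZT24 replicate 1 or ZT24 replicate 3, and without ZT9 replicate 3 the XYP1 call alone was kept. At XYP1 the fold percentiles were 36.4, 44.6 and 36.1 in the ZT24 lists and 0.331, 0.470 and 0.0974 in the ZT9 lists. Its pileup percentiles were 23.5, 32.1 and 23.3 at ZT24, against 9.73, 14.5 and 14.6 at ZT9, and its background percentiles 19.0, 21.0 and 20.9 at ZT24, against 96.8, 98.5 and 98.2 at ZT9. The XYP1 fold was thus among the lowest of the shared sites in every ZT9 list.

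A stricter class was higher or lower by both measures, by fold rank after adjustment and by pileup rank at an unadjusted p under 0.05 in the same direction, a rule set after the pileup gave no adjusted call. It held 117 sites higher (0.814%) and 149 lower (1.04%). TPX2, a microtubule factor of the mitotic spindle whose window is printed, had pileup percentiles of 84.3, 80.5 and 85.1 at ZT24, against 45.5, 32.3 and 48.6 at ZT9, with pileups of 112, 98 and 83 fragments at ZT24 and 63, 56 and 60 at ZT9. IGMT2 had 32.5, 22.3 and 20.6 at ZT24, against 65.5, 66.3 and 54.4 at ZT9. Of the 149 lower sites 18.1% held an evening element in the window and of the 117 higher sites 5.13%, against 6.45% of all shared sites.

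By pileup rank alone, the 6 higher sites with the smallest p included AT5G15780, M17 (a late embryogenesis protein), AT3G17580, DIN9 (a dark-induced mannose 6-phosphate isomerase) and Rap2.6L (an ERF transcription factor). At DIN9 the percentiles were 44.6, 49.7 and 47.8 at ZT24, against 13.1, 3.91 and 10.0 at ZT9. The 6 lower sites with the smallest p were at AT1G68500, AL1, AT1G28100, OFP17 (an ovate family protein), AT4G33985 and AT4G18422. At AL1 they were 21.5, 20.4 and 20.6 at ZT24, against 70.7, 73.5 and 81.7 at ZT9, and at OFP17, whose window has an evening element, 1.23, 5.56 and 3.56 at ZT24, against 35.8, 50.1 and 44.3 at ZT9. These 12 sites had adjusted p between 0.0897 and 0.0923 (limma).

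Sites gained and lost were mostly weak. Gained sites made up 1.42% and lost sites 0.640% of the 27664, and their median fold percentile within the lists that held them was 23.6 (gained) and 22.1 (lost), with 15 gained and 7 lost sites above percentile 50. Of the gained sites 140 were also in 3 of 3 ZT4 lists and 64 in none, and of the lost sites 40 and 50. Another site in all 6 lists was nearest to the same gene for 149 gained and 81 lost sites. With 1 list left out there were 488 to 947 gained and 211 to 488 lost sites. A site then needs to be present in, or absent from, 1 list fewer, which admits more sites whichever list is dropped. These ranges therefore do not show dependence on a library.

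The 6 gained sites with the highest ranks were at AT3G54510, AT5G06990, IAA29, AT4G17000, AT4G16770 and AT2G20080. AT3G54510 held the highest, at fold percentiles 75.7, 76.4 and 56.2, with no peak at ZT9 or ZT4, and it lies beside the LNK2 site. AT4G16770, with 2 G-boxes, stood at 62.9, 70.0 and 52.9 and in all ZT4 lists. The 6 lost sites with the highest ranks were at COL9, ELF4, AT5G47690, AT1G73700, AT5G23510 and XRCC2, a protein of DNA repair, whose site stood at 39.0, 56.2 and 66.0 in the ZT9 lists.

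**Figure D5:**
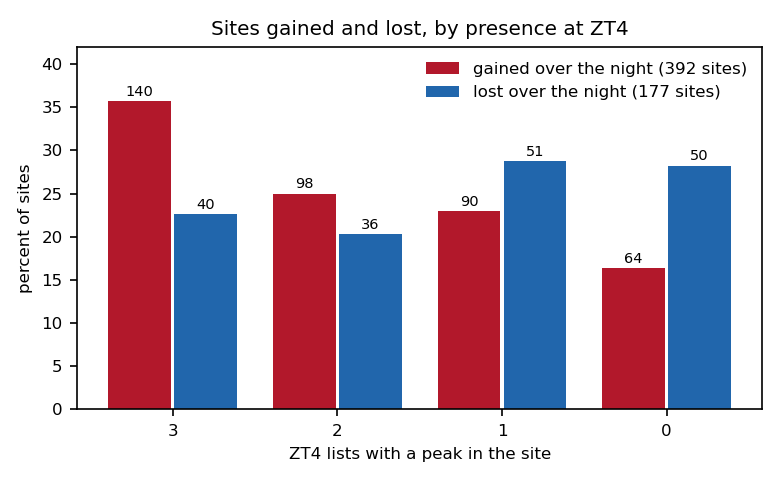
Share of gained and lost sites (vertical axis, percent of the sites of each kind) by the number of ZT4 lists with a peak in the same site (horizontal axis); numbers on the bars are sites. Of 392 gained sites 140 were in all 3 ZT4 lists and 64 in none, and of 177 lost sites 40 and 50.

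By sequence, G-boxes were in 11.7% of gained and 4.52% of lost windows (46 and 8 sites), against 10.8% of all windows. Evening elements were in 4.34% and 6.78% (17 and 12 sites), against 5.96% of all windows. The TCP-like word was in 26.3% of gained and 32.8% of lost windows, against 34.6% of all windows. By region, 55.1% of gained and 57.1% of lost sites were promoter-TSS (1000 bp upstream to 100 bp downstream of a TSS), against 58.5% of all sites, and 20.9% and 23.2% lay near a transcript end, against 15.6%. These counts had no test.

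Sites that moved by fold rank differed in position, as counts with no test. Of the 353 lower at ZT24, 65.2% were promoter-TSS and 11.9% intergenic, with a median distance of 183 bp to the TSS, while of the 359 higher 54.6% were promoter-TSS and 21.4% intergenic, at a median of 460 bp. All shared sites had 60.3%, 17.2% and 364 bp. The higher sites were nearest to 352 genes and the lower to 349, with 5 genes near both. By pileup rank at an unadjusted p under 0.05 this order was not seen, with medians of 512 bp for the higher and 680.5 bp for the lower sites.

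No difference between whole lists passed a test. ZT24 lists had 23015 ± 1882 peaks and ZT9 lists 22520 ± 1709 (SD, n = 3 each; two-sided exact permutation test, p = 0.7), where 3 against 3 lists cannot go below 0.1. Promoter-TSS regions held 58.9% ± 0.320 of peaks at ZT24 and 58.5% ± 0.859 at ZT9 (SD, n = 3 each), and over the 5 region classes the adjusted p was 0.9 (exact permutation test). Shares of windows with each of 5 words had an adjusted p of 0.8 (exact permutation test), including the evening element at 6.10% ± 0.230 at ZT24 and 6.28% ± 0.122 at ZT9. Summits at 10596 sites with a lone peak in each list lay a median of 31 bp apart between the times and 31.5 bp within them, and 561 sites (5.29%) had medians over 100 bp apart.

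Nearest genes overlapped largely. A gene counted as bound when its TSS was nearest to a peak in at least 2 of 3 lists, which gave 14288 protein-coding genes at ZT24 and 13756 at ZT9, and 12685 of the 15359 bound at either time (82.6%) were bound at both. ZT24 alone had 1603 genes and ZT9 alone 1071. With 3 of 3 lists against 0 of 3, 218 genes were bound at ZT24 alone and 100 at ZT9 alone. Of the 203 genes in the lists, LHCB2.1, SAUR19, SAUR22 and PRR3 were bound at ZT24 alone and YUC1, AHL25 (annotated as AGF1) and PRR7 at ZT9 alone, and 0 by the stricter rule. SAUR19 and SAUR22 belong to a cluster of near-identical auxin-induced genes, where a peak goes to whichever TSS is nearest. The gene counts ran from 769 to 3074 at ZT24 alone and from 483 to 2286 at ZT9 alone when 1 list was left out. A bound gene then needed 2 of 2 lists at the shortened time, and this stricter rule itself shifts the counts.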

How the data were processed

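Seedling SOB3-GFP ChIP-seq at ZT24 and ZT9 was analysed from peak lists, 1 per replicate. The authors converted reads with bcl2fastq, mapped them to TAIR10 with Bowtie, keeping unique hits, and called peaks in each replicate with MACS2 against input. Which input went with which replicate, and the versions of these tools, are not given in the sources used here. The deposited lists hold MACS2's own values for each peak, the fold enrichment at the summit (a linear ratio), −log10 p-value, −log10 q-value and a display score, with the interval and the summit position as other columns. The deposited −log10 q started between 1.30 and 1.33, and the score was not used.

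Peaks were merged by 1 bp overlap. Pileup and background were solved from fold = (pileup + 1) / (background + 1) and a Poisson p, within 0.001 for 100% of peaks. Depth per sample is known only through that background. Regions and genes came from RefSeq TAIR10.1 (27444 protein-coding genes), which shares the nuclear chromosomes of TAIR10. At the sites in all 6 lists, within-list ranks became normal scores, tested with limma 3.58.1 in R 4.3.3 (two-sided, Benjamini-Hochberg over all 14367 sites, threshold 0.05). The fit was also run on simulated ranks with independent noise in each list. That simulation held no background shared by the lists of a time. Other comparisons used two-sided exact permutation tests in Python 3.11.15 with SciPy 1.17.1. Unique mapping leaves near-identical genes with few reads.

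Sites named in the text are the 6 with the smallest p in each direction by fold rank and by pileup rank, the 6 gained and 6 lost with the highest mean rank, and list genes at called, gained or lost sites. One such site is not reported here. The members and the 18 gene lists were chosen with earlier results of these data known, and the lists that hold BES1, CPD, YUC8, IAA29, XTH15, ELF3 and ELF4 include loci that the study picked. The fit of the background, the class called by both measures, the evening element and G-box ranks, and the sites picked by an unadjusted p were chosen after seeing the data. Alternatives were other thresholds, site definitions, scales and fits, and leaving out each list. The chloroplast and mitochondrial peaks and the input tracks stayed out of the comparisons.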

Additional observations from a re-analysis of the deposited data

Results flagged for a closer look

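Peaks outside the nuclear genome were in no comparison. The 6 lists held 182 chloroplast peaks, of which ZT24 replicates 1, 2 and 3 had 23, 15 and 10 and ZT9 replicates 1, 2 and 3 had 100, 34 and 0. Their median fold enrichment was 1.18 over a median background of 247 fragments, against 2.75 and 18.7 for nuclear peaks. A further 57 peaks were mitochondrial, with 32 in ZT24 replicate 3 and 25 in ZT9 replicate 2, at a median fold of 1.44. Both are signals in data that no comparison used, and no plants without GFP were at hand to set beside them.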

How the results depend on the processing

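Among the alternatives to the fold rank, the 712 calls became 120 with a replicate block (62 higher, 58 lower), 1189 in a fit on all 9 lists, 15 by rank of −log10 p and 1783 by log2 values, and 0 to 130 when 1 list was left out. The replicate numbers did not pair the samples (correlations of same-numbered deviations between −0.00406 and 0.0149), and the replicate block left 0 pileup calls. Pileup rank calls went to 27 with all 9 lists and to 110 by log2 values, and stayed at 0 under the other settings run, each list left out included. Gained sites numbered 1268 with at least 2 of 3 lists against 0 and 488 to 947 with 1 list left out. Lost sites numbered 80 with −log10 q held to 10 or more, 327 with sites of 150 bp either side of summits, 729 with at least 2 of 3 lists against 0 and 211 to 488 with 1 list left out. Genes bound at 1 time alone were 218 at ZT24 and 100 at ZT9 by 3 of 3 lists against 0, and 769 to 3074 and 483 to 2286 with 1 list left out. For gained sites, lost sites and bound genes, leaving out a list also changes the presence rule, so these ranges do not measure the libraries alone. The difference in peaks per list ran from −411 to 1468 with 1 list left out and was −411 without ZT24 replicate 1 and −270.5 without ZT9 replicate 3, that in the promoter-TSS share from −0.123 to 0.695 percentage points, the negative value without ZT9 replicate 3. Median summit distance between the times was 28 bp with −log10 q held to 5 or more. The evening element difference was −4.20 with 100 bp windows, −3.97 with the same q limit, and −3.91 to −3.06 with 1 list left out, and the G-box difference 1.05 to 2.1. Of 37 named sites followed by fold rank, 32 had an adjusted fold call in the main fit. Of these 32 calls the block ended 16 (GI and TOC1 among them, but not LHY) and the rank of −log10 p 23. A left-out list ended between 14 and 32, and all 32 were lost without ZT24 replicate 1 or ZT24 replicate 3. Of 74 sites named with a pileup rank, log2 values gave 22 adjusted calls and, of 71 that remained, all 9 lists gave 11. None of these named sites changed direction in the settings run. The cause of these shifts was not tested.

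With 3 lists a group, depth known only from the background, 1 unassigned input per time and no control without GFP, ranks describe where SOB3-GFP signal stood within a list, not how much protein was bound.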
